A study of Homo sapiens with 4 samples.

Results

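Long noncoding RNAs of genes that carry a LINC symbol were followed across 2 human liver cancer cell lines, each untreated and treated. The members are the transcripts of the deposited long noncoding table that have an Ensembl transcript identifier and a gene symbol made of LINC and a number. They number 4099 transcripts of 1841 genes, which is 14.1% of the 29119 transcripts listed. The 4 groups are untreated HepG2, HepG2 after 24 h of RSL3@O2-ICG NBS plus low-frequency ultrasound, untreated Huh7, and Huh7 given the same treatment for 24 h. Each group holds 1 library from bulk cultured cells, so nothing within a line was replicated or tested, and no library here had ultrasound, carrier or RSL3 alone. RSL3 is an inhibitor of the lipid peroxide reductase GPX4 and is used to induce ferroptosis, an iron-dependent cell death.

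LINC symbols are given to long noncoding genes that lie between protein-coding genes and have no better name, so the group is defined by position and not by a shared function. Such RNAs are usually spliced and polyadenylated like messenger RNAs. They are known for low levels and for expression in few tissues or cell types. Most of the loci below have no settled function, so none is given for them.

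By identifier, 4007 members (97.8%) were found in the GENCODE 29 annotation, and 3985 of these (99.5%) stand at exactly its position, so coordinates are GRCh38 by this match. GENCODE 29 classes 3786 of them as intergenic (lincRNA), 196 as antisense, and 25 as other kinds. The name therefore did not always mean a locus free of other genes.

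The promoters of 6 genes are shown because the clearest values below come from them: LINC00847, LINC01836 and LINC01273 are 3 of the 4 loci called for treatment, LINC01234 holds a treatment difference in one line only, and LINC00942 and LINC02381 are among the most abundant transcripts read in a single line. Each runs from 250 bases before to 50 bases after the RefSeq start, 5′ to 3′ on the gene's strand, from RefSeq on GRCh38.p14. Capitals mark matches, on either strand, to 7 searched motifs. The motifs are AP-1 (TGANTCA), the antioxidant response element bound by NRF2 (TGACNNNGC), the C/EBP-ATF composite (TGATGCAA), an E-box (CACGTG), the CCAAT box (CCAAT), the TATA box (TATAAA) and a forkhead site (TGTTTAC).
LINC00847, chr5:180830707-180831006, plus strand: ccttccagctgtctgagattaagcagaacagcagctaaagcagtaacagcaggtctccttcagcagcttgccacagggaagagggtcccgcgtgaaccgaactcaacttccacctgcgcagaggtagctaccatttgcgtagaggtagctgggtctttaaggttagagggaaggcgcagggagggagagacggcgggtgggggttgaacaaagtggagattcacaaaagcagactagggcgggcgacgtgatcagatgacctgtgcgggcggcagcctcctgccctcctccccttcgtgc
LINC01836, chr19:782546-782845, plus strand: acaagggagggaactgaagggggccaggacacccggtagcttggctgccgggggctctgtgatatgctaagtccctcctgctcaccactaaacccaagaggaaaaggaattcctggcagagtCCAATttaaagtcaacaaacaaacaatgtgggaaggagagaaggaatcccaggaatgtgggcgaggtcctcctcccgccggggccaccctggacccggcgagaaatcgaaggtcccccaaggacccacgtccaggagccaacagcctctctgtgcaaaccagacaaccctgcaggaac
LINC01273, chr20:50172320-50172619, plus strand: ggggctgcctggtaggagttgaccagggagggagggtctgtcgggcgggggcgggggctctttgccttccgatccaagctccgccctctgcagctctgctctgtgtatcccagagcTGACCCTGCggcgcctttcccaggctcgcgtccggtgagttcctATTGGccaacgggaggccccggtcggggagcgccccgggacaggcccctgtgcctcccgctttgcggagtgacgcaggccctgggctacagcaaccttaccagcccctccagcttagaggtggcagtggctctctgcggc
LINC01234, chr12:113773634-113773933, minus strand: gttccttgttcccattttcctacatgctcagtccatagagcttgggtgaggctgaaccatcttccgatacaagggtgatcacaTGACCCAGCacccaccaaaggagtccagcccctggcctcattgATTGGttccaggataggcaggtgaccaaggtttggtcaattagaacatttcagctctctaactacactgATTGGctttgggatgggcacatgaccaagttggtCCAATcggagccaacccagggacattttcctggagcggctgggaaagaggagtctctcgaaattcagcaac
LINC00942, chr12:1500241-1500540, plus strand: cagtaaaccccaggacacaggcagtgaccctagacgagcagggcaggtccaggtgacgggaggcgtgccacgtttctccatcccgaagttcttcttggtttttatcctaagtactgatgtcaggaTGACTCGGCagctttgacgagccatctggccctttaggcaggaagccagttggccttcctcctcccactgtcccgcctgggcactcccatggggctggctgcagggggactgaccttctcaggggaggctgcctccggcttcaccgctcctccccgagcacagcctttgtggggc
LINC02381, chr12:54125821-54126120, plus strand: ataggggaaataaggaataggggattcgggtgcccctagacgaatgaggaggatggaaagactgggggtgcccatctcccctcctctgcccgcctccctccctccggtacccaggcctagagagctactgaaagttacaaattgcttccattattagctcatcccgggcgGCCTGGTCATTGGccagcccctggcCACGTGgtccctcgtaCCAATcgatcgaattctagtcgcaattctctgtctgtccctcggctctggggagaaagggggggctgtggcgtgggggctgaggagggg

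LINC01273 and LINC01234 hold both an antioxidant response element and at least 1 CCAAT box, LINC00942 holds the element alone, and LINC01836 holds a CCAAT box alone. In LINC02381 the capital run that begins GCCTGGTCA is an antioxidant response element read on the other strand, which overlaps a reversed CCAAT box. LINC00847 has none of the 7 motifs in this window, and its main transcript starts 408 bases after the RefSeq start, outside the window. The antioxidant response element was in 13.3% of all 35116 RefSeq promoters of this length and in 22.7% of 75 promoters of genes with a measured member. The CCAAT box was in 34.6% and 53.3% of them. Among 24 promoters of genes with a member past 2-fold on treatment in a line, these shares were 20.8% and 41.7%. For all promoters and those of measured members, AP-1 was in 7.71% and 4.0%, and the E-box in 7.26% and 9.33%. The TATA box was in 11.5% and 10.7%, the C/EBP-ATF composite in 0.866% and 1.33%, and the forkhead site in 3.42% and 2.67%. RefSeq gave a promoter for 70 of the 104 genes with a measured member, and some genes have several. A match of letters describes the sequence and is not a bound site.

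Levels are FPKM, fragments scaled to transcript length and library size. Most LINC transcripts were not read at all: 2867 members (69.9%) were listed at 0 in all 4 libraries, and 1100 others stayed above 0 and below 1 FPKM. A further 132 members (3.22%) from 104 genes reached 1 FPKM in at least 1 library and are called measured below. The same mark was reached by 7.58% of all long noncoding transcripts listed and by 66.0% of coding genes. Of the 132, 75 had their highest value under 2 FPKM and 16 reached 5 FPKM. Only 14 stood at 1 FPKM or more in all 4 libraries.

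Depth inferred from the steps between low values was 22900000 to 26400000 fragments per library, so a transcript of 1 kb at 1 FPKM rests on 23 to 26 fragments. The steps are not sharp, and fragment numbers are approximate. Hepatocyte markers go against one label: all 12 of them were below 1 FPKM in both libraries labelled HepG2, with summed levels of 0.599 and 0.468 FPKM, while all 12 passed 1 FPKM in both Huh7 libraries (sums of 1865 and 1438 FPKM). ALB and FOXA2 were listed at 0 there. These libraries are called HepG2-labelled below, and differences between the lines carry this doubt. Markers of other cell types differed between treated and untreated libraries. The 6 blood cell markers summed to 1.59 FPKM before and 21.6 FPKM after treatment in HepG2-labelled cells, nearly all of it CD68 (1.38 and 20.7 FPKM), a lysosomal protein gene, and to 15.7 and 5.14 FPKM in Huh7. The 6 endothelial markers summed to 0.141 and 1.16 FPKM and to 0.478 and 0.193 FPKM. The 8 fibroblast and stellate markers summed to 11.1 and 12.4 FPKM and to 38.5 and 10.7 FPKM. Single genes carried much of these sums too. In Huh7 CD14 stood at 15.1 and 2.21 FPKM, CD68 at 0.521 and 2.83 FPKM, and LUM at 31.7 and 8.05 FPKM. In HepG2-labelled cells TIE1 stood at 0 and 1.06 FPKM. There ACTA2, COL1A1 and DES were higher after treatment (ACTA2 1.22 and 5.23 FPKM). PDGFRB and TAGLN were lower (PDGFRB 5.67 and 1.67 FPKM). The part of these markers in the differences below was not tested. PTPRC and CD3E, which define leukocytes and T cells, were listed at 0 in all 4 libraries.

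Both treated libraries held more LINC RNA than their untreated partners. The summed level of all members in HepG2-labelled cells was 214 FPKM before and 283 FPKM after treatment, and 238 and 306 FPKM in Huh7. Counting intervals of these sums (95%, Poisson on the total inferred fragments, counting error only) were 209 to 218 against 278 to 289 in HepG2-labelled cells. In Huh7 they were 233 to 243 against 300.3 to 312. They weigh all fragments alike, although a fragment of a short transcript adds more FPKM. They also count no fragments for members without a known length. The intervals are therefore approximate, and the gap between them is no test. The number of members at 1 FPKM or more was 53 and 60 in the HepG2-labelled pair and 45 and 73 in the Huh7 pair. The sum over the whole long noncoding table was 106608 and 107833 FPKM in the HepG2-labelled pair and 121377 and 139199 FPKM in Huh7. The coding sum was 352692 and 341796 FPKM in the HepG2-labelled pair and 369953 and 377831 FPKM in Huh7. In counts the whole table moved as the members did, with 815, 1123, 984 and 1296 transcripts at 1 FPKM in the same order. In bulk RNA, more cells that express a transcript and more RNA per cell cannot be told apart.

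The abundant members were few. The 10 highest members of each library held 25.2% to 31.7% of its summed LINC level. LINC01419-201, on chromosome 8 at 83403758 to 83408900, had the highest mean: it was listed at 0 in both HepG2-labelled libraries and stood at 23.5 FPKM in Huh7 before and 22.5 FPKM after treatment. LINC00942-201, on chromosome 12 at 1500525 to 1504424, had the opposite pattern, with 11.4 and 15.5 FPKM in the HepG2-labelled libraries and 0 in both Huh7 libraries. The treated and untreated libraries of a line lay close together for both.

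Others of the 10 members with the highest mean were read in every library. LINC01843-201 stood at 5.07 FPKM before and 2.99 FPKM after treatment in HepG2-labelled cells, and at 6.90 and 8.51 FPKM in Huh7. LINC01003-201, a single-exon transcript on chromosome 7, was the most even, at 3.90, 5.02, 5.03 and 4.77 FPKM in the same order. LINC00294-201 stood at 7.85 and 6.79 FPKM in the HepG2-labelled pair and at 1.67 and 2.55 FPKM in Huh7. LINC02001-201 (3.22 to 5.76 FPKM), LINC00467-201 (3.01 to 6.03 FPKM) and LINC00235-201 (2.70 to 3.87 FPKM) were also read throughout. With 1 library a group, neighbours in this order that differ by less than 2-fold are not ranked.

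**Figure D1:**
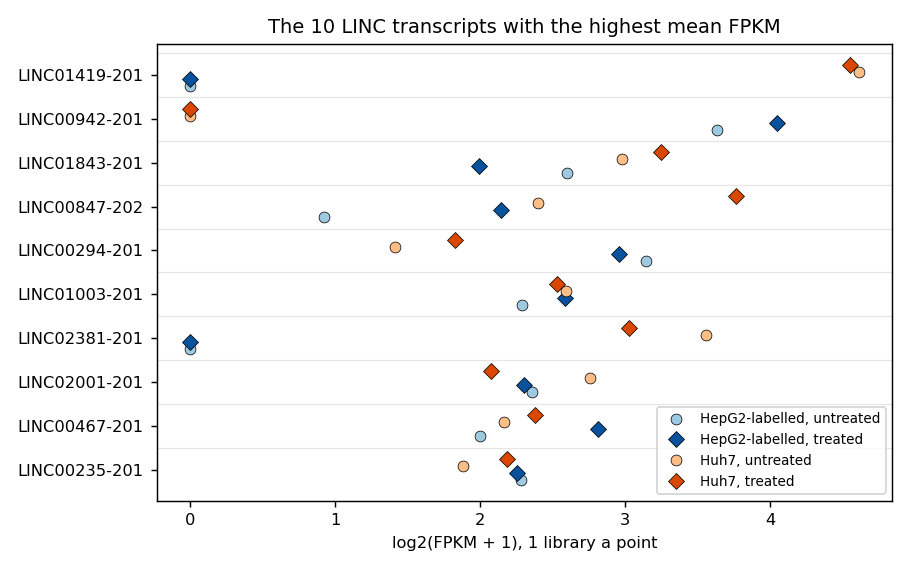
Levels of the 10 LINC transcripts with the highest mean, as log2(FPKM + 1), 1 point per library; circles are untreated, diamonds treated, blue HepG2-labelled, orange Huh7. LINC01419-201, LINC00942-201 and LINC02381-201 are at 0 in the libraries of one line, and LINC00847-202 spreads over the 4 libraries from 0.901 to 12.6 FPKM.

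Levels were more alike within a line than between lines. Over the 132 measured members, log2(FPKM + 1) correlated at r = 0.71 between the treated and untreated HepG2-labelled libraries (rho = 0.72) and at r = 0.77 in Huh7 (rho = 0.69). Between libraries of different lines r lay between −0.20 and −0.03. A member enters by reaching 1 FPKM in any library, so many enter through a single line, and this choice itself lowers r between lines. Under the same choice, all 2206 long noncoding transcripts gave r of 0.85 within each line and of 0.46 to 0.54 between lines. These are descriptions over transcripts, some of which share a gene.

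Of 37 members at 1 FPKM or more in both HepG2-labelled libraries, 10 (27.0%) were listed at 0 in both Huh7 libraries. They are LINC00942-201, LINC01234-203, LINC01357-201, LINC01357-202, LINC00665-206, LINC00665-208, LINC00472-209, LINC00668-202, LINC01133-201 and LINC01693-201. In the other direction it was 14 of 35 members (40.0%). Over the whole long noncoding table the shares were 66 of 623 (10.6%) and 159 of 732 (21.7%). Among coding genes the same measure gave 162 of 11009 (1.47%) and 276 of 11214 (2.46%). Coding values are per gene and member values per transcript, so these shares are side by side and were not tested against each other.

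Between the untreated libraries, 82 members were measured. Of these, 23 were at least 2-fold higher in Huh7, where 30.0% of all long noncoding transcripts tested were, and 27 were at least 2-fold lower, where 18.3% were. The ratio is log2((FPKM + 1)/(FPKM + 1)), which understates the change of low transcripts. The median ratio was −0.36 for the members and 0.20 for all long noncoding transcripts. The sign of the members' median depends on the unit: summed by gene it was 0.05, over 88 genes with 28 higher and 22 lower. A library listed the transcript at 0 in 33 of the 50 calls, for which no fold is given. The gene sum also passed 2-fold the same way in 47 of the 50.

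On the Huh7 side, LINC02381-201 was listed at 0 in both HepG2-labelled libraries and stood at 10.8 and 7.16 FPKM in untreated and treated Huh7. It lies on chromosome 12 at 54126098 to 54132843, inside the body of SMUG1, a uracil-DNA glycosylase gene read at 27.3 to 33.4 FPKM in the 3 other libraries and at 35.6 FPKM in treated Huh7. LINC01980-203 was also at 0 in both HepG2-labelled libraries, against 5.49 and 5.66 FPKM. LINC01608-201 stood at 4.29 and 3.88 FPKM against 0 and 0. The host gene SMUG1 therefore did not show the difference that LINC02381-201 showed.

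On the HepG2-labelled side, LINC01234-203 stood at 3.61 FPKM before and 8.25 FPKM after treatment, and at 0 in both Huh7 libraries. LINC00346-201 stood at 2.24 and 3.45 FPKM against 0.0242 and 0.0350 FPKM. LINC00942-201 begins 4592 bases from the nearest coding gene ERC1, a scaffold protein gene of the presynaptic active zone and of NF-kB signalling. ERC1 stood at 10.9 and 11.7 FPKM in the HepG2-labelled pair and at 8.16 and 8.21 FPKM in Huh7, so it lacked the all-or-none pattern of its neighbour.

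A limma fit over the 4 libraries took the treatment as a block and tested the cell line. It called 52 of the 132 members (Benjamini-Hochberg adjusted p under 0.05 over all 2206 measured long noncoding transcripts), 27 higher and 25 lower in Huh7, where 19.4% and 13.0% of all transcripts tested were called. The largest terms were 4.58 for LINC01419-201, −3.84 for LINC00942-201 and 3.29 for LINC02381-201 (log2, Huh7 minus HepG2-labelled). Their adjusted p by limma were 2.09e-37, 8.72e-29 and 6.72e-23. The fit has 1 residual degree of freedom and took its spread wholly from the trend over all transcripts, so these p-values do not measure repeat cultures of a line.

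**Figure D2:**
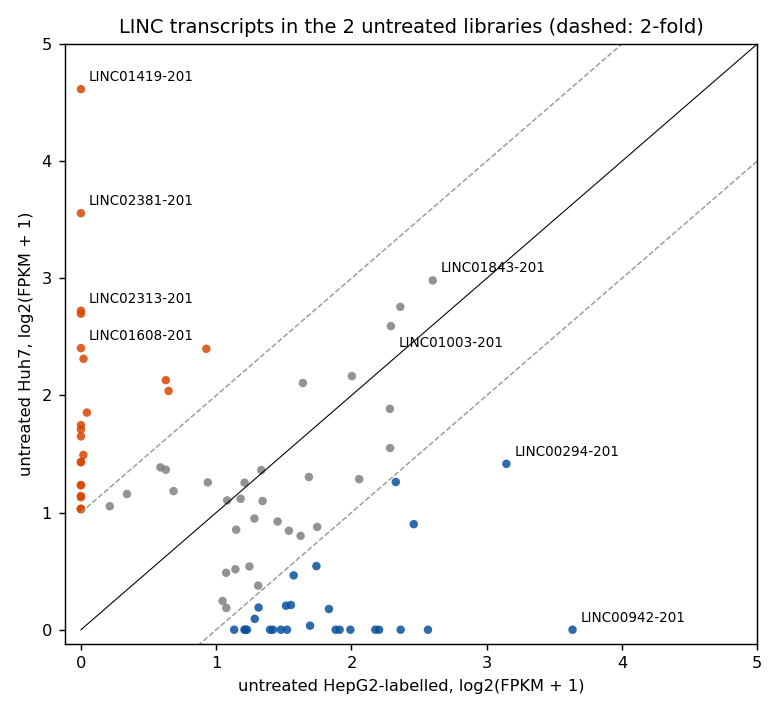
Levels of measured LINC transcripts in the untreated HepG2-labelled library (x axis) and the untreated Huh7 library (y axis), both log2(FPKM + 1), 1 point per transcript; dashed lines mark 2-fold, orange is higher in Huh7, blue lower, grey neither. Of the 50 coloured points, 33 have a value of 0 in a library, such as LINC01419-201 on the y axis and LINC00942-201 on the x axis.

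In the HepG2-labelled cells, 76 members were measured. After treatment 15 were at least 2-fold higher (19.7%), where 13.5% of all 1315 long noncoding transcripts tested were, and 9 were at least 2-fold lower (11.8%), where 5.25% were. The median ratio was 0.27 for the members and 0.31 for all. In Huh7, 83 members were measured, with 10 higher and 4 lower, where 10.3% and 5.49% of 1548 transcripts were. The median ratios there were 0.36 and 0.23. A transcript enters through whichever library reads it. As 1 is added to both values, a member whose higher value is near 1 FPKM passes 2-fold only if the other library hardly reads it.

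Only 27 members were measured in both lines. Of these, LINC00847-202 was at least 2-fold higher in both, LINC01836-201 at least 2-fold lower in both, and LINC00896-201 went opposite ways. Over the 27 the ratios of the 2 lines correlated at r = 0.35 (rho = 0.27), a description with no library in common. Of the 24 members past 2-fold in the HepG2-labelled pair, 20 (83.3%) were below 1 FPKM in both Huh7 libraries, as were 49 of all 76 measured there (64.5%). Of the 14 in Huh7, 11 (78.6%) were below 1 FPKM in both HepG2-labelled libraries, as were 56 of all 83 (67.5%). Over all long noncoding transcripts past 2-fold these shares were 59.9% and 69.3%.

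**Figure D3:**
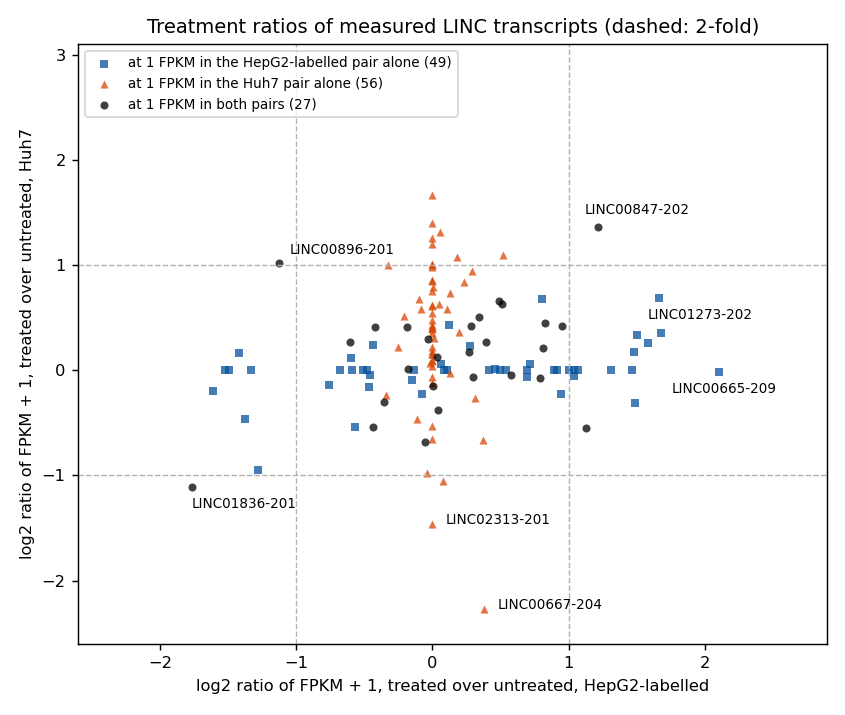
Treated over untreated log2 ratio of FPKM + 1 of each measured LINC transcript in HepG2-labelled cells (x axis) and Huh7 (y axis); squares reach 1 FPKM in the HepG2-labelled pair alone, triangles in the Huh7 pair alone, circles in both, and dashed lines mark 2-fold. LINC00847-202 and LINC01836-201 are the points past the lines in the same direction, and most other points lie near an axis, with a ratio near 0 in one line.

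LINC00847-202 rose in both lines. In HepG2-labelled cells it stood at 0.901 FPKM before and 3.41 FPKM after treatment, and in Huh7 at 4.27 and 12.6 FPKM. The FPKM ratio was 3.79 in HepG2-labelled cells (95% counting interval 2.66 to 5.46) and 2.94 in Huh7 (2.50 to 3.48). Both treated values were above their own control, and untreated Huh7 was above treated HepG2-labelled cells. The treatment term of the limma fit, with the cell line as a block, was 1.29 on the log2 scale (SE 0.34, adjusted p 0.00792). As for the cell line term, its spread came wholly from the trend over all transcripts. The SE and p-values of treatment terms, here and below, therefore do not measure repeat treatments of a line. The transcript lies on chromosome 5 at 180831365 to 180835678 on the plus strand, has 2 exons, and shares 13.3% of its exonic bases with HEIH, a long noncoding gene on the opposite strand. The labels do not say whether strand was kept. The gene sum over its listed transcripts was 1.47, 4.69, 4.88 and 14.3 FPKM, so the other isoforms did not offset it.

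LINC01836-201 fell in both lines. Its levels in HepG2-labelled cells were 4.02 FPKM before and 0.473 FPKM after treatment, and 1.40 and 0.108 FPKM in Huh7. The FPKM ratios were 0.118 (0.0514 to 0.231) and 0.0770 (0.00863 to 0.293), the second on 2 inferred fragments in treated Huh7. The limma treatment term was −1.44 (SE 0.29, adjusted p 0.000116). The other transcript of the gene, LINC01836-202, stood at 3.88 and 4.02 FPKM in HepG2-labelled cells and at 1.93 and 1.26 FPKM in Huh7. It thus held its level in the HepG2-labelled pair while the first isoform dropped. The gene sum was 7.90, 4.49, 3.33 and 1.37 FPKM, and the limma term of the sum did not pass (adjusted p 0.158). The isoforms, both of 2 exons, overlap on chromosome 19 between 782755 and 785080, where an estimate must divide shared fragments.

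The coding gene nearest to LINC01836, 11995 bases away, is PTBP1, which encodes a repressor of alternative exons. In HepG2-labelled cells it stood at 71.0 FPKM before and 37.8 FPKM after treatment, and at 149 and 74.7 FPKM in Huh7. Its levels were lower in both treated libraries, as those of LINC01836-201 were. Across all measured members within 10000 bases of a coding gene, which excludes this pair, the treatment ratios of the 2 neighbours correlated weakly (r = 0.19 over 30 pairs in HepG2-labelled cells and r = 0.26 over 24 pairs in Huh7).

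LINC01273-202 and LINC00665-209 also passed the limma treatment term. LINC01273-202 stood at 0.725 and 4.53 FPKM in the HepG2-labelled pair and at 0.0507 and 0.340 FPKM in Huh7 (term 1.02, adjusted p 0.0193). The Huh7 values of this isoform rest on 1 and 4 inferred fragments, so its change there was not detectable at this depth. The other isoform, LINC01273-201, stood at 0.380 and 0.691 FPKM in the HepG2-labelled pair and at 0.191 and 1.296 FPKM in Huh7. As a gene LINC01273 summed to 1.10 and 5.22 FPKM and to 0.242 and 1.64 FPKM, at least 2-fold higher in both lines (limma adjusted p of the sum 0.00017). The nearest coding gene, 17364 bases away, is CEBPB, a transcription factor of the liver acute phase and of stress responses, which stood at 78.9 and 155 FPKM in the HepG2-labelled pair and at 26.4 and 28.1 FPKM in Huh7. LINC00665-209 stood at 1.11 and 8.06 FPKM in HepG2-labelled cells and at 0.138 and 0.127 FPKM in Huh7 (term 1.05, adjusted p 0.0186). Its difference lay in the HepG2-labelled pair alone, although the term is an average of the lines. The isoform is absent from GENCODE 29, so it has no inferred fragments or counting interval. As a gene LINC00665 summed to 9.04 and 18.8 FPKM in the HepG2-labelled pair and to 0.199 and 0.174 FPKM in Huh7. The log2 ratio of FPKM + 1 of the sum in the HepG2-labelled pair was 0.98, which is below the 2-fold mark.

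In all, the limma treatment term called 4 of the 132 members, 3 higher and 1 lower, where 2.58% and 0.68% of all 2206 transcripts were called. An unadjusted limma p under 0.05 was found for 17 of the 132 members and for 287 of all 2206 transcripts. With a pseudocount of 0.1 in place of 1 the fit called 0 members. With that pseudocount 15 members and 252 of all 2206 transcripts had an unadjusted limma p under 0.05. Without the mean-variance trend the fit called 1 member, which was lower. With the transcripts of each gene summed, the called genes were LINC01273, LINC00847, LINC00663, LINC00106 and LINC02608, all higher, the last 3 chosen after their values were seen. LINC00663 as a gene stood at 0.10 and 0.862 FPKM in the HepG2-labelled pair and at 0.741 and 2.96 FPKM in Huh7 (adjusted p 0.0117 by limma).

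The isoforms of LINC00896 moved unlike each other. In HepG2-labelled cells LINC00896-201 stood at 1.44 FPKM before and 0.114 FPKM after treatment, and at 0.0666 and 1.17 FPKM in Huh7. LINC00896-202 stood at 0.374 and 1.83 FPKM in the HepG2-labelled pair, and at 0.443 and 0.392 FPKM in Huh7. Each is a single exon, and the shorter lies wholly within the longer on chromosome 22 at 20206397 to 20208524. The gene sum was 1.81 and 1.94 FPKM in the HepG2-labelled pair and 0.510 and 1.56 FPKM in Huh7. As a gene it was thus level in the HepG2-labelled pair. In Huh7 the gene sum was higher after treatment, with a log2 ratio of FPKM + 1 of 0.76, which is below the 2-fold mark. The opposite directions were therefore those of LINC00896-201 alone.

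LINC00667 was listed under a different main isoform in each library that read it well. LINC00667-205 stood at 1.87 FPKM in untreated HepG2-labelled cells and at 0 elsewhere. LINC00667-204 stood at 3.97 FPKM in untreated Huh7 and at 0.0285 FPKM in treated Huh7. LINC00667-202 stood at 2.17 FPKM in treated Huh7 and at 0 elsewhere. The gene sum was 2.75, 0.498, 4.26 and 3.24 FPKM, so the Huh7 pair differed by less than 2-fold as a gene while its isoforms passed 2-fold in both directions. These isoforms share 12.5% to 64.5% of their exonic bases with LINC00526 on the opposite strand.

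Over all calls, 18 of the 24 in HepG2-labelled cells and 13 of the 14 in Huh7 were of genes with another listed transcript. Most measured members were of such genes too: only 32 of the 128 in GENCODE 29 were the only listed transcript of their gene. The gene sum also passed 2-fold the same way for 15 of the 24 and for 7 of the 14. All calls with fragments in both libraries (14 and 8) had counting intervals of the ratio that left out 1. These calls were picked by the size of the same values, so the intervals add no support for them. Calls without inferred fragments in a library have no interval. Counting error alone does not cover the uncertainty of dividing fragments between isoforms.

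**Figure D4:**
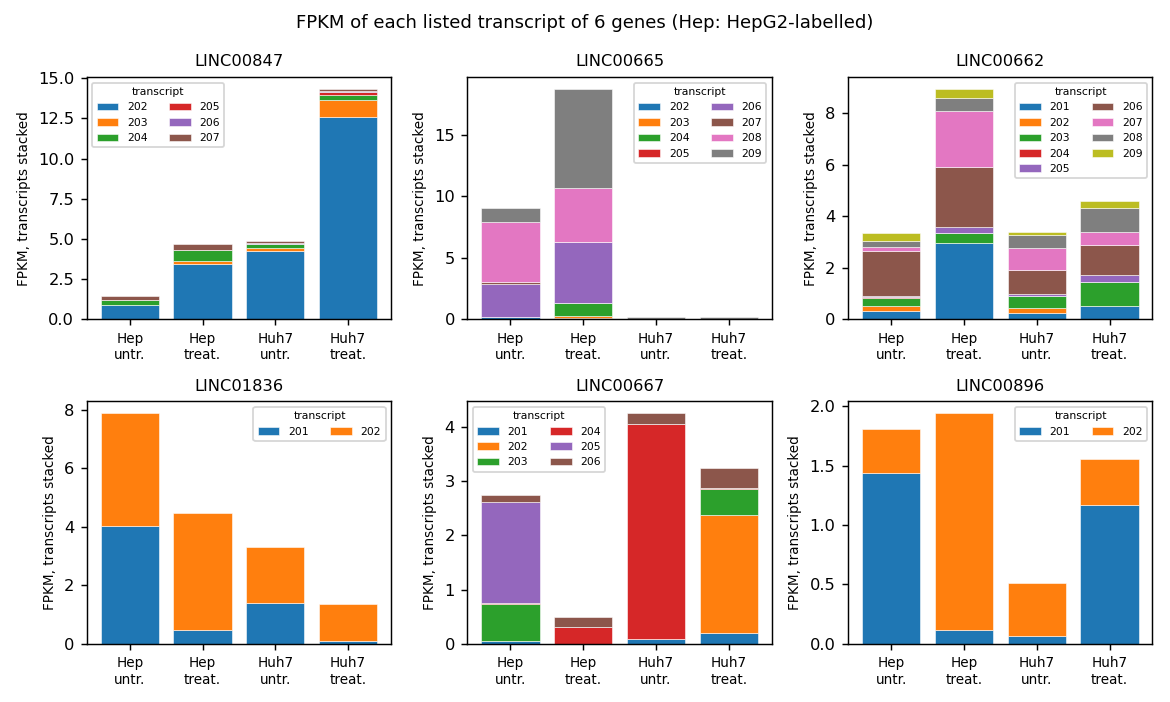
FPKM of each listed transcript, stacked, for 6 LINC genes in the 4 libraries (bars start at 0; Hep is HepG2-labelled, untr. untreated, treat. treated). LINC00847 is mostly transcript 202 in every library, LINC01836 has little of transcript 201 in the treated libraries while 202 is read in all 4, and LINC00667 and LINC00896 change their main transcript between libraries.

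Further members were at least 2-fold higher in treated HepG2-labelled cells. LINC01234-203 went from 3.61 to 8.25 FPKM, with its gene sum at 5.48 and 12.7 FPKM. LINC01357-201 went from 3.52 to 8.46 FPKM while LINC01357-202 went from 4.15 to 2.21 FPKM, and the first shares 71.8% of its exonic bases with LINC01356. LINC01311-201 had under 1 inferred fragment before and 1.22 FPKM after treatment, while in Huh7 it stood at 1.81 and 0.920 FPKM. LINC00520-211 went from 0.107 to 2.05 FPKM and LINC01366-201 from 0.114 to 1.77 FPKM. LINC02608-203, LINC01518-201 and LINC01063-201 were listed at 0 in untreated HepG2-labelled cells and at 2.16, 1.83 and 1.78 FPKM after treatment.

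LINC00662 had a pair of isoforms past 2-fold in these cells. LINC00662-201 stood at 0.327 and 2.97 FPKM in the HepG2-labelled pair and at 0.264 and 0.513 FPKM in Huh7, with a limma adjusted p of 0.054. LINC00662-207 stood at 0.137 and 2.19 FPKM against 0.874 and 0.512 FPKM. The gene sum was 3.36 and 8.94 FPKM in the HepG2-labelled pair and 3.40 and 4.57 FPKM in Huh7. Its gene-level difference was thus larger in the HepG2-labelled pair, and that difference between the lines was not tested.

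Members lower in treated HepG2-labelled cells included LINC00707-201 (2.77 to 0.338 FPKM) and LINC00707-205 (1.79 to 0.105 FPKM), whose gene sum moved from 7.19 to 4.78 FPKM. LINC02323-201 stood at 1.67 FPKM untreated and 0 treated. LINC01186-201 stood at 1.97 and 0.145 FPKM. LINC01547-202 stood at 2.08 FPKM untreated and at less than 1 inferred fragment after treatment, and its gene sum at 2.09 and 0.574 FPKM. LINC00842-201 was listed at 0 in both treated libraries and at 1.43 and 0.931 FPKM in the untreated HepG2-labelled and Huh7 libraries. It lies on chromosome 10 in a region with ANXA8L1, a gene that has near-identical copies, so how fragments were divided there is uncertain.

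In Huh7 the higher members were mostly isoforms that were near 0 untreated. LINC02615-204, LINC00304-202 and LINC01473-201 were listed at 0 in untreated Huh7 and at 1.64, 1.48 and 1.39 FPKM after treatment. LINC01515-209 went from 0.675 to 2.84 FPKM, and its gene sum from 1.25 to 6.27 FPKM, with 0.840 and 0.761 FPKM in the HepG2-labelled pair. Among the lower members, LINC02313-201 went from 5.60 to 1.40 FPKM, a ratio of 0.250 (0.145 to 0.431), and was listed at 0 in both HepG2-labelled libraries. It is the only listed transcript of its gene, so no isoform shares its fragments. LINC01783-201 went from 1.08 FPKM to 0.

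Lists of LINC genes known from other settings gave few measured transcripts. Of 8 liver-enriched genes, all were listed, with 22 transcripts, and none reached 1 FPKM. LINC00261, a liver and endoderm transcript next to FOXA2, summed to 0 in both HepG2-labelled libraries and to 0.404 and 0.453 FPKM in Huh7. LINC02428 summed to 0 in both HepG2-labelled libraries and to 0.203 and 0.457 FPKM in Huh7, and LINC01093 was at 0 in all 4. These liver-enriched LINC RNAs were thus low in both lines, including Huh7, which held the hepatocyte coding markers.

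Of 10 genes studied in ferroptosis, 9 were listed, and only LINC00472 reached 1 FPKM, with 3 transcripts. None of the 3 passed 2-fold on treatment (median ratio −0.51 in HepG2-labelled cells), and all 3 were at least 2-fold lower in untreated Huh7. As a gene, LINC00472 summed to 8.35 and 5.16 FPKM in the HepG2-labelled pair and 0.993 and 0.864 FPKM in Huh7. LINC00336 stood at 0.0185 and 0.0282 FPKM and at 0 in Huh7, and LINC01134 stood at 0.570, 0.0442, 0.919 and 1.18 FPKM as a gene sum. A list of 8 loci known for a small encoded protein had none listed under those symbols.

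Of 19 genes studied in liver cancer, 9 were listed under these symbols, and 5 of them gave 11 measured transcripts. In HepG2-labelled cells 4 of 10 were at least 2-fold higher and 0 lower, where 13.5% and 5.25% of all long noncoding transcripts tested were. These 4 belong to LINC00662 and LINC00665 alone, so they are not 4 independent genes. The median ratio of the 10 was 0.75, against 0.27 for all measured members. In Huh7, 0 of 4 passed 2-fold in either direction (median 0.19), where 10.3% of all were higher and 5.49% lower. LINC00467, whose gene sum was 6.40 and 11.0 FPKM in the HepG2-labelled pair and 5.06 and 7.37 FPKM in Huh7, was read in all 4 libraries.

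Measured members differed from the others in structure. Of 128 measured members in GENCODE 29, 26 (20.3%) have a single exon, as against 82 (2.11%) of 3879 others. Their median length was 1212 bases against 704 bases. The median distance to a coding gene was 19585 bases for measured members and 73058 bases for the rest. A coding start on the opposite strand, on either side, lay within 1000 bases of the start for 9.38% against 2.63%. Exons of another gene overlapped 27.3% of the measured members and 14.3% of the others. These are descriptions over transcripts that share genes, and whether reads of the overlapping or neighbouring genes raised the measured levels was not tested.

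Coding neighbours within 10000 bases were present for 30 measured members in the HepG2-labelled comparison, 24 in the Huh7 comparison and 28 in the comparison of the untreated lines. In the HepG2-labelled comparison 3 of these members passed 2-fold, 0 together with a higher neighbour and 1 together with a lower one. In Huh7 1 passed and no neighbour passed with it. Between the untreated lines 11 passed, of which 4 had a neighbour past 2-fold the same way, and the ratios correlated at r = 0.37 (rho = 0.47) over the 28 pairs.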

How the data were processed

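RNA of 4 libraries, 1 per group, was sequenced; per the labels' protocols, Trizol extraction was followed by an Illumina TruSeq RNA library from 1 µg of total RNA. The authors deposited FPKM per long noncoding transcript and per coding gene, per the file headers. Per the submitters' processing notes, StringTie 1.3.1 and Cuffdiff 2.1.1 were among the tools, with HISAT2 and Bowtie2 2.2.8, and their roles are not stated. Build, annotation and strand handling: not given in the sources used here. Nothing states that libraries are separate cultures.

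Ratios are log2((FPKM + 1)/(FPKM + 1)) over transcripts with at least 1 FPKM in 1 of the 2 libraries, counted past 2-fold. limma 3.58.1 (R 4.3.3) was fitted to log2(FPKM + 1) of 2206 transcripts with a mean-variance trend, and adjusted by Benjamini-Hochberg. The fit was also run on simulated data without a cell line difference, which cannot test the p-values given here. Fragments were inferred from steps between low FPKM values; only 51.6% to 54.1% of low values lie within 0.1 of whole steps. Named transcripts are the 10 highest and 10 lowest ratios of each comparison, those past 2-fold in both lines, the 10 highest means, the 10 lowest adjusted p of each limma term, and members of 4 gene lists at 1 FPKM. Members and lists were chosen with earlier results of these data known, and 1 LINC gene is not reported here. Alternatives changed the pseudocount, minimum, scaling and unit.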

Additional observations from a re-analysis of the deposited data

Results flagged for a closer look

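LINC00896-201 moved in opposite directions in the lines: its treated over untreated log2 ratio was −1.13 in HepG2-labelled cells and 1.02 in Huh7. The pattern did not hold under every setting: with each library rescaled to the same coding sum 0 members went opposite ways, and summed by gene the HepG2-labelled ratio was 0.067. The difference between the lines was not tested, since each rests on 1 library a group.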

How the results depend on the processing

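No replicates could be paired within a line, because each group holds 1 library and the labels number no replicates. Cell line and treatment are the only blocks. The limma fits have them, so their treatment term pairs treated and untreated libraries by line. No library could be left out of a group of 1. Depth limits most members: at 1 FPKM a 1 kb transcript rests on 23 to 26 fragments. Of the summary values, 68 kept their direction and size under an alternative, 54 moved and 6 changed sign. Of the single-transcript values, 442 stayed on the same side of the fold mark, 35 moved, and 3 past the mark changed sign. Values that stayed could still change direction or size. In HepG2-labelled cells the ratio of LINC00665-208 was −0.13, and 0.98 with transcripts summed by gene. Except where fewer transcripts were tested by construction, the cause of the changes was not tested.

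With a pseudocount of 0.1, 23 members were higher in HepG2-labelled cells (15 with 1), 26 higher and 7 lower in Huh7 (10 and 4), and the Huh7 median was 0.60. With no minimum the medians were 0.032 in Huh7 and 0.025 between lines. At a minimum of 5 FPKM fewer transcripts were tested: 3 higher and 0 lower with a median of 0.81 in HepG2-labelled cells (15, 9 and 0.27), 1 higher and 1 lower with a median of −0.061 in Huh7, 4 higher and 2 lower with a median of 0.39 between lines (23, 27 and −0.36), and 0 past 2-fold the same way or opposite ways in both lines (2 and 1). Rescaling each library to the same coding sum left 0 members opposite.

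With transcripts summed by gene, 4 genes were lower in HepG2-labelled cells (9), 0 went opposite ways, and the median between lines was 0.048. Of the single ratios past 2-fold, 3 changed sign. LINC00896-201 in HepG2-labelled cells was 0.067, LINC00667-202 in Huh7 −0.31 and LINC00667-205 between lines 0.49. Among genes with 1 listed transcript, 3 were higher and 3 lower in HepG2-labelled cells, 0 and 1 in Huh7 (median 0.14), 8 and 7 between lines (median 0.30), with 0 the same way and 0 opposite ways in both. Without members that overlap another gene or are absent from GENCODE 29, an alternative chosen after seeing the data, 5 were lower in HepG2-labelled cells, 2 in Huh7 and 15 between lines (27), the median between lines was 0.16, and 1 went the same way in both.

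At 0.1 FPKM, 271, 341, 328 and 427 members were counted in untreated and treated HepG2-labelled and Huh7 libraries, and at 5 FPKM 3, 8, 7 and 6 (53, 60, 45 and 73 at 1 FPKM). Rescaled sums were 218, 299, 232 and 292 FPKM; without LINC01419-201 the Huh7 sums were 215 and 284 FPKM. With a pseudocount of 0.1 the limma treatment term called 0 higher and 0 lower (lowest adjusted p 0.116). An unadjusted p under 0.05 was found there for 15 of 132 members and 252 of all 2206 transcripts. At 5 FPKM the term called 0 and 0. Its unadjusted p was under 0.05 there for 1 of 16 members and 31 of 282 transcripts. The term called 0 higher and 1 lower with no trend, 2 higher and 2 lower with no minimum, and 5 higher and 0 lower by gene. The limma cell line term called 5 higher and 4 lower at 5 FPKM (27 and 25).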
